A study of Rattus norvegicus with 10 samples.

Results

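Transcript levels of 4 signalling genes, DUSP6, AKAP12, AKAP13 and ESRRA, were followed in the choroid plexus of individual rats kept on a control diet or on a high fat diet (HFD). The 4 genes, of 32883 listed, were chosen by symbol from the study's own list of genes that differed between the diets, a list made from the same rats. Their differences between the diets are therefore given as a description with no test, and only measures that did not enter that choice were tested. RNA was sequenced from whole choroid plexus of 10 female Wistar rats, all 27 weeks of age, and each library came from a single animal. The control group (5 rats) ate a diet with matched nutrient sources, and the HFD group (5 rats) ate the high fat diet, which was the only labelled difference between the groups. The study states that its experimental animals were also chosen by body weight, control rats under a threshold and HFD-fed rats over a higher one. Diet and this choice by weight cannot be told apart here. The study used HFD-fed rats as a model of the raised intracranial pressure seen with obesity, and the comparison asks whether the diet altered gene expression in the tissue that secretes cerebrospinal fluid (CSF).

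The choroid plexus is a folded epithelium around a vascular and connective tissue core in the brain ventricles, rich in mitochondria and busy with ion transport. DUSP6 is a cytoplasmic phosphatase that switches off the mitogen-activated kinases of the ERK pathway, and ERK activity in turn drives DUSP6 transcription, so that DUSP6 forms a negative feedback loop. AKAP12 (gravin) and AKAP13 (AKAP-Lbc) are A-kinase anchoring proteins, scaffolds that hold protein kinase A (PKA) near its substrates. AKAP12 also binds protein kinase C, and AKAP13 is in addition an exchange factor that activates the small GTPase RHOA. ESRRA, the estrogen-related receptor alpha, is an orphan nuclear receptor that, with PGC-1 coactivators, drives genes of mitochondrial respiration.

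The values are TPM, each gene's length-corrected share of all transcripts in a rat, so that levels can be compared between genes. Each rat's TPM were divided by the median of its ratios to the mean of all rats, and the result is called rescaled TPM. From 16078 to 16703 genes were detected (TPM above 0) per rat. The labels give a nominal sequencing output and not the reads of each library, but the spacing of the low FPKM values gave sequencing depths relative to control rat 2 of 0.753 to 1.10 in the control rats and 0.722 (HFD rat 4) to 1.01 in the HFD-fed rats. Control rat 1 stood apart, with a scaling factor of 0.733 against 0.930 to 1.12 in the other rats and a mean effective transcript length of 789 bases against 874 to 968 bases. Values without this rat are given beside many of the results that it moved, but not beside all of them.

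The tissue label was checked against marker genes. All 10 epithelial markers were above 0 in every rat, led by TTR (transthyretin, the abundant carrier protein that the epithelium secretes into CSF). The rescaled TPM of the 10 markers summed to 374471 ± 96156 (SD, n = 5) in control rats and 343719 ± 55499 (SD, n = 5) in HFD-fed rats, with 546382 in control rat 1 against 327107 to 335293 in the other control rats, whose mean of 331494 ± 3755 (SD, n = 4) lay below that of the HFD-fed rats. TTR made up 98.5% to 99.2% of this sum, which therefore follows TTR and not the epithelium as a whole. In control rat 1, 5 of the 10 markers were at their highest of all 10 rats and the other 5 at their lowest. Between the diets, 5 of the 10 markers had a higher and 5 a lower mean in HFD-fed rats, and for 1 of them, KL (klotho), the diets did not overlap, against 1.26% (higher) and 2.17% (lower) of all genes tested. The gap was narrow, from 422 in control rat 2 to 423 in HFD rat 1, and KL was at 381 ± 59.4 in control and 454 ± 18.4 rescaled TPM in HFD-fed rats (SD, n = 5 each). Of the 8 fibroblast markers, 7 endothelial and 7 mural (pericyte and smooth muscle) markers, 1 each could be named from the tables used, DCN (the matrix protein decorin), PLVAP (a protein of fenestrated capillaries) and RGS5 (a pericyte regulator of G proteins). DCN was at 162 ± 43.8 rescaled TPM in control and 195 ± 26.0 in HFD-fed rats, PLVAP at 67.5 ± 18.1 and 57.6 ± 6.09, and RGS5 at 97.0 ± 29.9 and 118 ± 10.3 (SD, n = 5 each), and the diets overlapped for all 3 genes. Control rat 1 had the lowest RGS5 (43.6) and the highest PLVAP (99.3) of the control rats. Without it the control means were 173 ± 41.9 for DCN, 59.6 ± 4.21 for PLVAP and 110 ± 1.81 for RGS5 (SD, n = 4 each). Of the 4 ependymal markers and the 5 blood markers, 1 each could be named, DYNLRB2 (a dynein light chain) at 154 ± 13.9 in control and 136 ± 14.3 in HFD-fed rats, and HBB (beta globin) at 1227 ± 348 and 1060 ± 295 rescaled TPM (SD, n = 5 each). Macrophage, neuron, astrocyte and oligodendrocyte markers were not analysed here. In whole tissue, fewer cells of a type and less RNA per cell cannot be told apart, and the part that cell composition has in the values below was not tested.

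The 4 genes kept the same order of abundance in all 10 rats, with ESRRA highest, then DUSP6, AKAP12 and AKAP13. Over all rats the mean was 70.3 rescaled TPM for ESRRA, 17.8 for DUSP6, 7.77 for AKAP12 and 4.37 for AKAP13. Among the 12225 genes tested (mean rescaled TPM of at least 1), ESRRA was more abundant than 88.9% of genes and DUSP6 than 63.8%, whereas AKAP12 and AKAP13 were more abundant than only 41.5% and 26.2%. DUSP6 and AKAP12 were far apart in control rats but were neighbours in HFD-fed rats, in which the ranges of the 2 genes overlapped (9.46 to 20.8 for DUSP6 and 8.03 to 12.4 for AKAP12). All other neighbours in this order had ranges that did not overlap within a diet.

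DUSP6 (ENSRNOG00000023896), the ERK phosphatase, was lower in most HFD-fed rats. Its rescaled TPM in control rats 1 to 5 was 23.3, 27.1, 27.2, 20.6 and 13.4. In HFD rats 1 to 5 it was 11.0, 12.8, 9.46, 20.8 and 12.4. Of the HFD-fed rats, 4 lay below every control rat, and HFD rat 4 lay inside the control range, while control rat 5 was close to the HFD-fed rats. The means were 22.3 ± 5.69 and 13.3 ± 4.40 (SD, n = 5 each). On the log2 scale HFD minus control was -0.75 (standard error, SE, 0.24), or -0.73 without control rat 1. For the TPM as deposited the means were 21.3 ± 6.23 and 13.8 ± 5.25 (SD, n = 5 each), and HFD rat 5 (13.8) also lay inside the control range, just above control rat 5 (13.5). DUSP6 also varied most of the 4 genes between rats on the same diet, with a within-diet SD of 0.42 on the log2 scale, above that of 83.2% of the genes tested.

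AKAP12 (ENSRNOG00000019549), the PKA and protein kinase C scaffold, was higher in every HFD-fed rat than in any control rat. Its rescaled TPM in control rats 1 to 5 was 6.42, 5.83, 5.74, 5.10 and 6.96, and in HFD rats 1 to 5 it was 8.99, 12.4, 8.03, 9.67 and 8.52. HFD rat 2 was the highest, and the gap between the diets lay between 6.96 and 8.03. The means were 6.01 ± 0.708 and 9.53 ± 1.73 (SD, n = 5 each). The log2 fold change was 0.65 (SE 0.13), or 0.67 without control rat 1. With the TPM as deposited the diets remained apart, at 5.72 ± 0.856 and 9.73 ± 1.51 (SD, n = 5 each).

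AKAP13 (ENSRNOG00000010964), the anchoring protein with RHOA exchange activity, was the least abundant of the 4 genes. Its rescaled TPM was 3.82, 4.40, 3.66, 3.58 and 3.80 in control rats 1 to 5. In HFD rats 1 to 5 it was 4.50, 5.06, 5.10, 4.38 and 5.37. The diets overlapped by a single pair, since HFD rat 4 (4.38) fell just under control rat 2 (4.40). The means were 3.85 ± 0.320 and 4.88 ± 0.424 (SD, n = 5 each). The log2 fold change was 0.33 (SE 0.10), and also 0.33 without control rat 1. With the TPM as deposited, the diets did not overlap, at 3.68 ± 0.562 and 5.00 ± 0.553 (SD, n = 5 each).

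ESRRA (ENSRNOG00000021139), the nuclear receptor, was lower in most HFD-fed rats. Its rescaled TPM was 77.8, 68.0, 85.5, 79.7 and 81.7 in control rats 1 to 5, and 59.5, 58.6, 58.6, 71.2 and 62.1 in HFD rats 1 to 5. HFD rat 4 again lay inside the control range, above control rat 2. The means were 78.5 ± 6.55 and 62.0 ± 5.35 (SD, n = 5 each). The log2 fold change was -0.34 (SE 0.08), and also -0.34 without control rat 1. The overlap of the diets changed most with the scaling for this gene. With the TPM as deposited, 3 of the 5 HFD-fed rats lay inside the control range and the means were 75.2 ± 12.7 and 63.8 ± 9.82 (SD, n = 5 each). In rescaled TPM, HFD rat 4 was thus the HFD-fed rat nearest to the control rats for DUSP6, AKAP13 and ESRRA. With the TPM as deposited, HFD rat 2 (4.71) was nearest for AKAP13, with HFD rat 4 at 4.76. The library of HFD rat 4 had the lowest relative depth (0.722).

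**Figure D1:**
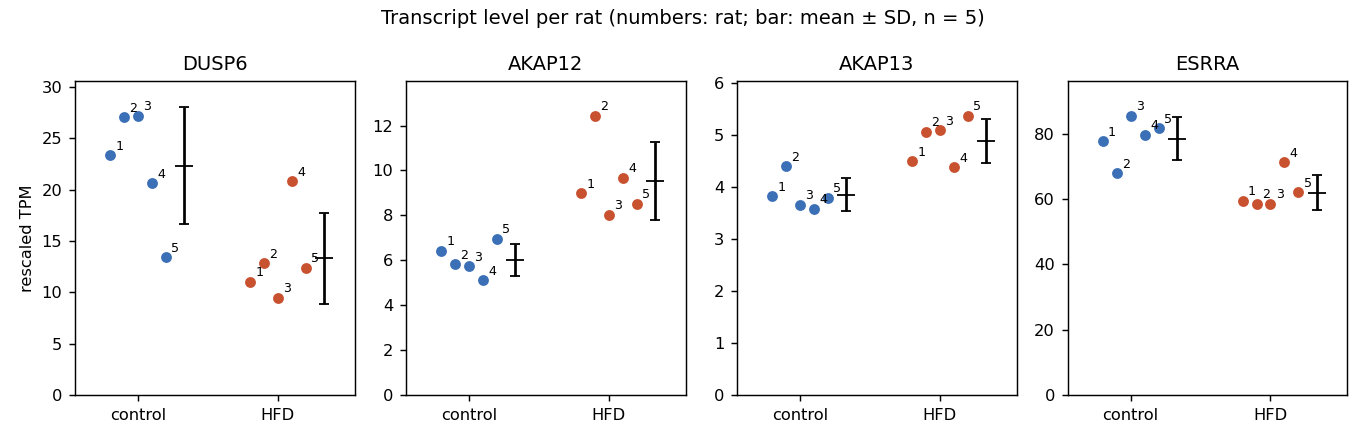
Rescaled TPM (vertical axis, from 0) of each gene in each of 10 rats, numbered within the diet, with the mean ± SD (n = 5) beside the points. AKAP12 is the gene with no overlap between the diets, and HFD rat 4 reaches into the control range for DUSP6 (20.8), AKAP13 (4.38) and ESRRA (71.2).

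Across the transcriptome, no gene (0%) passed an adjusted p of 0.05 in limma on log2(rescaled TPM + 0.1), with 0.529 as the lowest value after Benjamini-Hochberg adjustment. Without adjustment 1077 genes (8.81%) had a p under 0.05, with higher levels on the HFD for 432 (3.53%) and lower levels for 645 (5.28%). With the TPM as deposited, 470 were higher and 154 lower, so that the balance of directions turned with the scaling, and the median over all log2 fold changes was 0.01 with and 0.12 without the rescaling. The diets did not overlap for 154 genes (1.26%) that were higher and 265 genes (2.17%) that were lower in HFD-fed rats, and 1 of the 4 genes, AKAP12, was among the former. The size of the log2 fold change was above that of 97.7% of genes for DUSP6, 96.6% for AKAP12, 84.8% for AKAP13 and 85.5% for ESRRA. Since the genes were picked for their difference, nothing further is read from these shares.

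Ratios of 2 genes within a rat do not depend on how the rats are scaled. The ratio of DUSP6 to AKAP12, the phosphatase against the scaffold, was 3.63, 4.64, 4.74, 4.04 and 1.93 in control rats 1 to 5 and 1.23, 1.03, 1.18, 2.15 and 1.45 in HFD rats 1 to 5. It averaged 3.80 ± 1.14 and 1.41 ± 0.443 (SD, n = 5 each), and the diets overlapped only through control rat 5 and HFD rat 4. The ratio of ESRRA to AKAP12 was 12.1, 11.7, 14.9, 15.6 and 11.8 in control rats and 6.62, 4.71, 7.29, 7.37 and 7.29 in HFD-fed rats, with no overlap. The ratio of ESRRA to AKAP13 was 20.6 ± 3.06 and 12.8 ± 2.05 (SD, n = 5 each), with control rat 2 (15.5) below HFD rat 4 (16.2). Between genes that differed in the same direction the ratios moved less: ESRRA to DUSP6 was 3.79 ± 1.38 and 4.92 ± 1.03, and AKAP12 to AKAP13 was 1.57 ± 0.202 and 1.96 ± 0.386 (SD, n = 5 each), and both overlapped. These ratios rest on the contrast by which the genes were picked and were not tested.

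**Figure D2:**
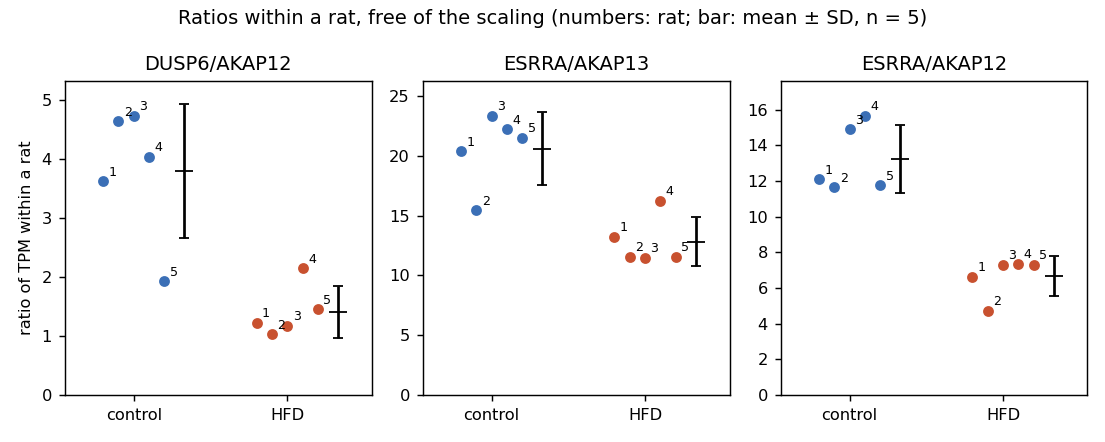
Ratio of the TPM of 2 genes within each rat (vertical axis, no unit, from 0), by diet, with the mean ± SD (n = 5). ESRRA/AKAP12 has no overlap between the diets (11.7 and above in control rats, 7.37 and below in HFD-fed rats), and the other 2 ratios overlap through HFD rat 4.

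The stretches of genome just ahead of 3 of the annotated genes are shown because they let the start regions of DUSP6, AKAP12 and ESRRA be read beside their levels. They come from RefSeq on the rat build GRCr8, not the build of the deposited values, and lie at chr7:35979354-35979501 for DUSP6 (plus strand), chr1:43135265-43135514 for AKAP12 (plus strand) and chr1:213543433-213543555 for ESRRA (minus strand). Each is written 5′ to 3′ along its gene, and capitals mark the GC box GGGCGG or its reverse complement.
DUSP6: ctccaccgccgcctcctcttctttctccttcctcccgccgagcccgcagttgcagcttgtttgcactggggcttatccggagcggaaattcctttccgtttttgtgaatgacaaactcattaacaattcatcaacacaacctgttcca
AKAP12: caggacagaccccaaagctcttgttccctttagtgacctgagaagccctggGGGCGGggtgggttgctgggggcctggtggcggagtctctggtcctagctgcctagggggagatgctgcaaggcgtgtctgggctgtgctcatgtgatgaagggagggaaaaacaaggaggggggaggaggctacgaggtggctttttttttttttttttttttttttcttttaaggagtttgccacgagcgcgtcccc
ESRRA: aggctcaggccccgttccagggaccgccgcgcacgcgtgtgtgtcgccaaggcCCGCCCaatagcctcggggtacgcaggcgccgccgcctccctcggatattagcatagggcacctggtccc
The window of AKAP13 lies within its annotated gene and is not printed.

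Windows of 300 bases, from 250 before to 50 after the annotated start, were searched on both strands for 4 short motifs in all 33469 RefSeq promoters. The GC box GGGCGG was found in 33.1% of promoters, the ETS core CCGGAA in 15% (ETS factors are effectors of ERK), the cAMP response element half-site TGACG in 21.2%, and the ERR half-site AAGGTCA, the sequence read by ESRRA itself, in 4.61%. None of the 4 motifs contains another. The DUSP6 window held none of these letters, the AKAP12 window held 1 GC box, the ESRRA window held 3 GC boxes, and the AKAP13 window held 2 GC boxes and 1 TGACG. The ESRRA and AKAP13 windows were the most GC-rich, with 72% and 64% GC and 35 and 29 CpG, against 57.7% and 19 for DUSP6, 56% and 11 for AKAP12, and medians of 51.7% and 7 over all promoters. A match of letters is a description and not a binding site.

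Lists of 8 related gene groups were compared with the 4 genes as far as their symbols could be named here, from a shortened copy of the study's gene tables that holds 2015 identifiers, mostly abundant genes. The 37 list genes that could be named all had a mean of at least 47.5 rescaled TPM, against a median of 10.6 over all genes tested, and 9 of the 37 had an unadjusted p under 0.05, against 8.81% of all genes. The 9 became 15 without control rat 1, where 1435 of all 12225 genes had such a p, against 1077 with all rats. Without control rat 2, control rat 4, HFD rat 3 or HFD rat 4 in turn, the 9 became 5, against 808 to 1114 of all 12225 genes. With the TPM as deposited the 9 became 1, against 624 of all 12221 genes. In a fit of the 6318 genes with a mean of at least 10 rescaled TPM, which are closer to the list genes in abundance, 10.4% had an unadjusted p under 0.05, with 1.85% higher and 8.59% lower in HFD-fed rats and a median log2 fold change of -0.04. None of these 37 genes passed the Benjamini-Hochberg adjustment over 12225 genes in limma. The other MAP kinase phosphatases (9 symbols), the ERK response and feedback genes (28), the other anchoring proteins (17) and the partners of ESRRA (24) were not analysed here, since no member could be named.

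Of 35 genes of the ERK cascade, the pathway that DUSP6 restrains, 5 could be named, and 1 had an unadjusted p under 0.05, against 8.81% of all genes. This was MAP2K2, a kinase that phosphorylates ERK, with 127, 99.0, 91.9, 98.9 and 92.8 rescaled TPM in control rats 1 to 5 and 91.0, 86.8, 88.1, 81.8 and 89.9 in HFD rats 1 to 5. All HFD-fed rats lay below all control rats, and control rat 1 was far above the rest. Its log2 fold change was -0.21 (SE 0.09, limma unadjusted p = 0.0386, adjusted p = 0.555), -0.13 without control rat 1 and -0.10 with the TPM as deposited. In 10 of 22 alternative settings, that scaling among them, 0 genes of the list had an unadjusted p under 0.05. MAPK3 (ERK1), a kinase that DUSP6 switches off, did not pass the unadjusted test, at 53.2 ± 12.9 and 47.3 ± 2.37 rescaled TPM (SD, n = 5 each). Control rat 1 held 76.1 against 44.9 to 49.8 in the other control rats, and the log2 fold change of MAPK3 was -0.14 with this rat and -0.01 without it. The median log2 fold change of the 5 genes was 0.03, against 0.01 over all genes, and it turned to -0.03 without control rat 1.

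Of the genes with which the anchoring proteins work, few could be named, and 0 of 7 had an unadjusted p under 0.05, against 8.81% of all genes. Without control rat 1, 1 was higher and 1 lower at that threshold, against 618 higher and 817 lower of all 12225 genes. In the PKA and cAMP list 2 of 30 were measured by name. PRKAR1A, a regulatory subunit of PKA, was at 136 ± 23.3 rescaled TPM in control and 139 ± 7.70 in HFD-fed rats (SD, n = 5 each). Its log2 fold change was 0.05 (SE 0.12) and -0.07 without control rat 1, which held 95.7 against 137 to 152 in the other control rats. Of 30 further partners of AKAP12 and AKAP13, 5 were named. RHOA, the GTPase that AKAP13 activates, was at 223 ± 22.3 and 213 ± 11.5 rescaled TPM (SD, n = 5 each), with a log2 fold change of -0.07 (SE 0.08) that was -0.01 without control rat 1 and turned to 0.04 with the TPM as deposited. The median log2 fold change of the 5 partners was -0.07, and it was likewise -0.01 without control rat 1 and 0.04 with the TPM as deposited.

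Of 35 textbook targets of ESRRA, genes of the citric acid cycle, the respiratory chain and fatty acid oxidation, 25 could be named. In HFD-fed rats 8 of the 25 were lower and 0 higher at an unadjusted p under 0.05, against 5.28% and 3.53% of all genes (8.59% and 1.85% of genes with a mean of at least 10), and 0 of the 25 passed the adjustment. Log2 fold changes were below 0 for 20 of the 25 genes, with a median of -0.12 against 0.01 over all genes and -0.04 over those with a mean of at least 10. Of these 8 genes, 3, SDHB and UQCRC1 among them, stand in the study's list of differing genes from the same rats and are not independent evidence. The count depended on the scaling and on single rats. With the TPM as deposited, 1 gene was lower, against 1.26% of all genes in that fit, and the median was -0.01. Without control rat 1, 12 were lower, against 6.68% of all genes in that fit. All 25 log2 fold changes were then below 0, with a median of -0.12 against -0.004 over all genes. The share of all genes with a log2 fold change below 0 is not given here. Without control rat 2, control rat 4, HFD rat 3 or HFD rat 4 in turn, 5 were lower, against 3.99% to 5.4% of all genes.

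SDHB, the iron-sulfur subunit of succinate dehydrogenase, had the smallest p of the targets in limma (unadjusted p = 0.00181, adjusted p = 0.529 over all genes). Its rescaled TPM was 196, 189, 195, 192 and 184 in control rats 1 to 5 and 158, 173, 168, 161 and 145 in HFD rats 1 to 5, with no overlap and a log2 fold change of -0.25 (SE 0.06). UQCRC1, a core subunit of respiratory complex III, was at 186 ± 8.92 and 162 ± 8.91 rescaled TPM, also with no overlap, and ATP5F1B, the catalytic beta subunit of ATP synthase, was at 1440 ± 100 and 1242 ± 52.0 (SD, n = 5 each). Their log2 fold changes were -0.20 (SE 0.06) and -0.21 (SE 0.07), and that of NDUFB5, an accessory subunit of complex I, was -0.23 (SE 0.08) with an overlap. Their log2 fold changes were smaller with the TPM as deposited, at -0.14 for SDHB, -0.09 for UQCRC1, -0.10 for ATP5F1B and -0.12 for NDUFB5. COX5B (cytochrome c oxidase), FH (fumarase) and IDH3G (isocitrate dehydrogenase) were also among the 8 lower targets, and COX5B was at 1605 in control rat 1 against 861 to 968 in the other control rats and 749 to 811 in HFD-fed rats. Other classical targets did not pass the unadjusted test. The log2 fold change was -0.06 (SE 0.10) for CYCS (cytochrome c), -0.09 (SE 0.06) for IDH3A (a citric acid cycle dehydrogenase), 0.10 (SE 0.18) for CS (citrate synthase) and 0.02 (SE 0.09) for ACADM (medium-chain acyl-CoA dehydrogenase). These small values turned sign, to 0.047 for CYCS and 0.020 for IDH3A when the TPM were used as deposited, and to -0.02 for ACADM without control rat 1. CS was at 26.5 rescaled TPM in control rat 1 against 49.1 to 57.8 in the other control rats, and its log2 fold change was -0.10 when that rat was left out.

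**Figure D3:**
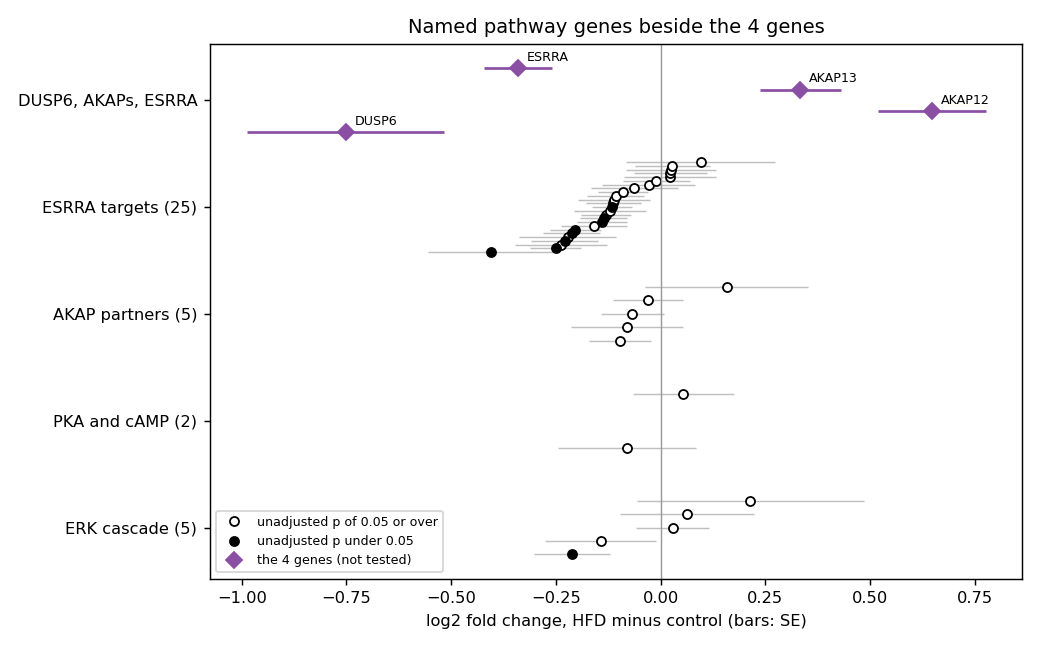
Log2 fold change of HFD-fed against control rats (horizontal axis, bars SE) for the named genes of 4 lists and for the 4 genes, with 5 rats per diet. Filled circles have a limma unadjusted p under 0.05, namely 1 ERK cascade gene and 8 ESRRA targets, all of them lower in HFD-fed rats, and none passed the adjustment.

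Whether the 4 genes varied together between rats on the same diet did not enter their choice and was tested. The log2 values were centred on the mean of each diet, and Pearson's r and Spearman's rho over the 10 rats were set against all 14400 permutations within the diets, two-sided, in a family of 18 relations. No relation of DUSP6 with an anchoring protein passed the test, and the sign of both depended on the scaling and on single rats. For DUSP6 and AKAP12, r was -0.01 (exact permutation p = 0.984) and rho was 0.27 (p = 0.468). Without the 2 rats farthest from the median of DUSP6, control rat 5 and HFD rat 4, r was 0.32. For DUSP6 and AKAP13, r was -0.14 (exact permutation p = 0.733), rho was -0.10 (p = 0.805) and r without the same 2 rats was 0.17. With 1 rat left out at a time, r ranged from -0.22 (without HFD rat 3) to 0.37 (without control rat 5) for AKAP12 and from -0.46 (without control rat 2) to 0.27 (without HFD rat 4) for AKAP13, and with the TPM as deposited r was 0.23 and 0.29. The adjusted p was 0.984 for both r and 0.975 for both rho.

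The relation between the 2 anchoring proteins did not pass either, with r = 0.02 and rho = -0.04 (exact permutation p = 0.962 and 0.925), and AKAP12 and ESRRA gave r = 0.02 and rho = 0.02 (exact permutation p = 0.965 and 0.975). DUSP6 and ESRRA gave r = 0.29 and rho = 0.21 (exact permutation p = 0.468 and 0.590). AKAP13 and ESRRA had the largest r of the 18, and rats with more AKAP13 for their diet had less ESRRA. Here r was -0.72 (exact permutation p = 0.0367, adjusted p = 0.66) and rho was -0.67 (p = 0.0422, adjusted p = 0.759), and r was -0.67 without control rat 2 and HFD rat 5. The relation did not pass the adjustment, and with the TPM as deposited it turned to r = 0.48. The endothelial and mural markers were here 2 genes, PLVAP and RGS5, taken as the mean of their log2 levels. In control rat 1 PLVAP was the highest (99.3) and RGS5 the lowest (43.6 rescaled TPM) of all 10 rats. The remaining 12 relations set each gene against the mean effective transcript length, DCN, and this mean of the endothelial and mural markers, and none passed the adjustment. The largest of these by size was DUSP6 against DCN (r = -0.54, rho = -0.42, exact permutation p = 0.138 and 0.258, adjusted p = 0.950 and 0.975), and it was -0.23 without control rat 5 and HFD rat 4. AKAP13 against the endothelial and mural markers gave r = 0.44 and rho = 0.36 (exact permutation p = 0.211 and 0.336, adjusted p = 0.950 and 0.975). AKAP12 against DCN gave r = 0.43 and rho = 0.24 (exact permutation p = 0.188 and 0.518, adjusted p = 0.950 and 0.975). The former r was 0.02 without control rat 2 and HFD rat 5, and the latter -0.54 without control rat 5 and HFD rat 2. Leaving out 1 rat at a time gave r of 0.29 to 0.68 for the former and 0.20 to 0.67 for the latter. Both were highest without control rat 1 (adjusted exact permutation p = 0.333 for both). The TPM as deposited gave another order, with r of -0.09 for DUSP6 against DCN, 0.90 for AKAP13 against the endothelial and mural markers and 0.68 for AKAP12 against DCN (adjusted exact permutation p = 0.067 for the last 2).

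**Figure D4:**
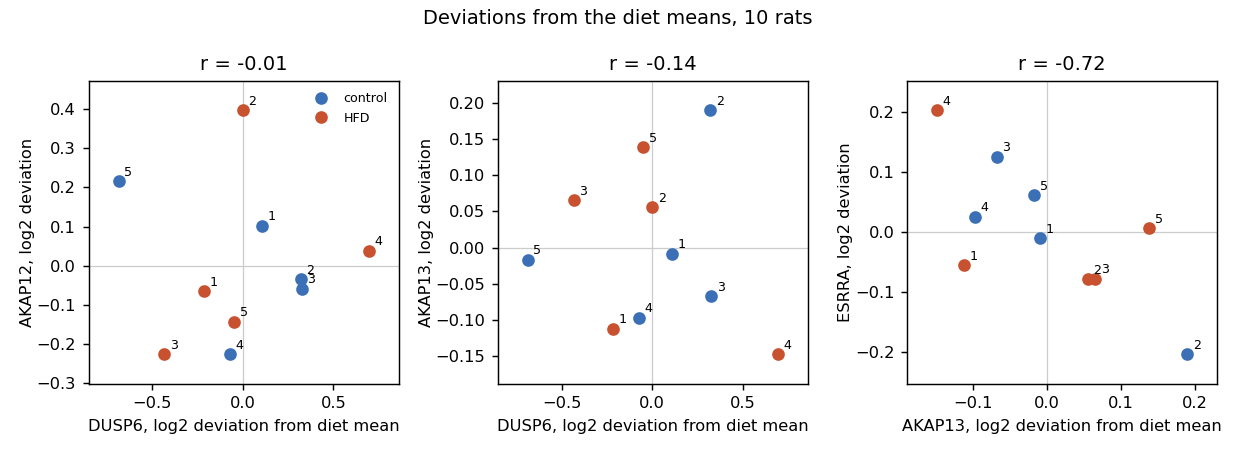
Deviation of each rat from its diet's mean on the log2 scale for 3 pairs of genes, with 10 rats numbered within the diet. For DUSP6, r was -0.01 with AKAP12 and -0.14 with AKAP13 (0.23 and 0.29 with the TPM as deposited), and for AKAP13 with ESRRA it was -0.72 (0.48 with the TPM as deposited), with none past the adjustment.

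The named genes whose within-diet deviations were most like those of each of the 4 genes were ranked among 2000 candidates by the lower of r over 10 rats and r over the 9 rats without control rat 1. With so many candidates high values of r arise readily, all points share the same libraries, and they are given as a description. For DUSP6 these were TMEM107, a protein of the ciliary transition zone (r = 0.86 over 10 rats), UQCR10, a small subunit of complex III (0.74), TOB1, an antiproliferative protein (0.74), HOPX, a homeodomain protein (0.71) and LOC102555453 (0.69). For AKAP12 they were NIT2 (an amidase, r = 0.83), HIKESHI (a nuclear import carrier, 0.78), ACTB (beta actin, 0.78), CD164 (a sialomucin, 0.77) and CSRP1 (a LIM domain protein, 0.77). For AKAP13 they were EZR, ezrin, which links the apical membrane to actin (r = 0.94 over 10 rats and 0.95 over 9), NXN (nucleoredoxin, 0.91), PSAP (prosaposin, 0.87), SLC13A4 (a sulfate transporter, 0.87) and GALNT2 (a glycosyltransferase, 0.82). For ESRRA they were RSRP1 (r = 0.89), AHSA1 and STIP1, both co-chaperones of heat shock proteins (0.86 and 0.81), RILPL2 (0.81) and SERPINH1, a collagen chaperone (0.77). Between the diets, the log2 fold change was -0.36 for TMEM107 and 0.06 for NIT2, and it was -0.02 for EZR and 0.12 for RSRP1. Of the genes named in this ranking, only UQCR10 stands in the study's list of differing genes from the same rats. Its mean was 4.06 rescaled TPM, and its log2 fold change was -0.42.

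**Figure D5:**
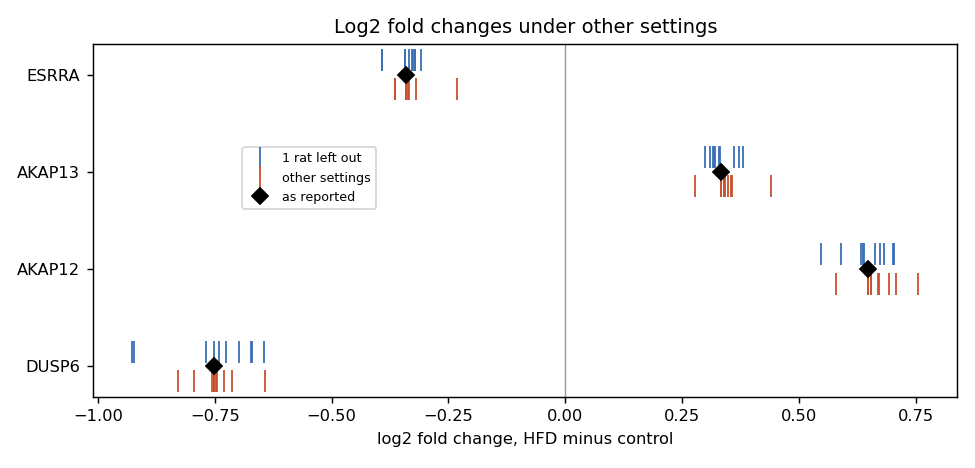
Log2 fold change of each gene (horizontal axis) as reported (diamonds), with 1 rat left out at a time (upper marks) and under the other scalings, filters, covariates and weights (lower marks). All values keep their sign, from -0.93 to -0.64 for DUSP6, 0.55 to 0.75 for AKAP12, 0.28 to 0.44 for AKAP13 and -0.39 to -0.23 for ESRRA.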

How the data were processed

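Total RNA of the choroid plexus was sequenced by the authors in 10 rats, as paired reads from NEB Next Ultra libraries on an Illumina NovaSeq instrument. The reads were aligned to Rnor_6.0 with STAR (version 2.7.2a in the submitters' processing notes) and quantified with RSEM 1.3.3. The deposited values are TPM per gene and FPKM per gene, both made by the authors and rounded to 2 decimals. FPKM were a constant multiple of TPM within a rat (within 0.0917% at a TPM of 10 or more), so that only TPM were tested. FPKM gave the mean effective transcript length and the relative depth, whose estimates over 3 windows of low values agreed within 0.1 on the log2 scale. Estimated precision from read numbers is not given, since TPM keep no depth. The study's gene tables also hold the authors' means and fold changes, of which none was used. Their pairing of identifiers with symbols was taken (2015 identifiers, with 7 symbols held by more than 1 identifier left out). Membership of the study's list of differing genes was taken as well. These tables are the only source of names, and a shortened copy was used.

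TPM were rescaled by median ratios over 14435 genes above 0 in every rat. The 12225 genes whose rescaled TPM averaged 1 or more entered limma 3.58.1 (R 4.3.3) with a mean-variance trend on log2(rescaled TPM + 0.1), so that fold changes understate those of low genes. Diet was the sole term, and p-values were adjusted by Benjamini-Hochberg over all genes fitted. Within-diet correlations used exact permutation tests (scipy 1.17.1). Tables and plots were made with pandas 2.3.3, numpy 2.4.6 and matplotlib 3.10.9 in python 3.11.15. The limma and correlation steps were tested on simulated data. Genes named were the 4 genes, up to 4 genes per list with the smallest unadjusted p under 0.05, fixed genes of each pathway, the 5 most alike genes of each of the 4 and the most abundant marker of each cell type. KL, COX5B, FH and IDH3G were named in addition after their values were seen, and some genes of the lists are not reported here by name. The members, lists, scaling and tests were chosen with earlier results of these data known. Each rat is a separate animal, and RSEM may divide reads between gene copies of nearly the same sequence.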

Additional observations from a re-analysis of the deposited data

Results flagged for a closer look

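Single rats far from the others of their diet were sought in 60 groups of 5 values (the 4 genes, their ratios, library measures, named pathway genes and marker sums) by the ratio of the gap to the range, above 0.71. Chance flags about 1 in 20 groups, or 3 of 60, and 13 were found, 9 of them in control rat 1. COX5B, FH and IDH3G, which were named after their values were seen, were not among the groups searched. COX5B was also high in control rat 1 (1605 rescaled TPM against 861 to 968 in the other control rats). Among the 4 genes, AKAP13 was high in control rat 2 (4.40 rescaled TPM against 3.58 to 3.82 in the other control rats) and ESRRA was high in HFD rat 4 (71.2 against 58.6 to 62.1 in the other HFD-fed rats). The ratio of DUSP6 to AKAP13 was high in HFD rat 4 (4.75 against 1.85 to 2.53), and the ratio of ESRRA to AKAP12 was low in HFD rat 2 (4.71 against 6.62 to 7.37).

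Control rat 1 was apart from the other 4 control rats in its scaling factor (0.733 against 0.991 to 1.03) and mean effective length (789 bases against 905 to 918). In rescaled TPM it was high for MAP2K2 (127 against 91.9 to 99.0), MAPK3 (76.1 against 44.9 to 49.8), the summed epithelial markers, nearly all of it TTR (546382 against 327107 to 335293), and the endothelial marker PLVAP (99.3 against 54.5 to 63.7). It was low for CS (26.5 against 49.1 to 57.8), PRKAR1A (95.7 against 137 to 152) and the mural marker RGS5 (43.6 against 108 to 112). The 4 genes themselves were not apart in this rat.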

How the results depend on the processing

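Over the alternatives run, the log2 fold changes of DUSP6, AKAP12, AKAP13 and ESRRA kept their sign and moved by less than the spread between rats, and the number of correlations with an adjusted p under 0.05 remained 0. The filter at a mean of at least 10 leaves out AKAP12 and AKAP13. Precision is limited by 5 rats per diet, unknown read numbers per library and gene names for few pathway members. The scaling by median ratios over genes with a mean TPM of at least 1 was added after seeing the data.

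Genes with an adjusted p under 0.05 numbered 1 with no filter on low values, 2 with the mean effective length as covariate and 3 with array weights, against 0. Those with an unadjusted p under 0.05 numbered 624 with the TPM as deposited, 660 at a mean of at least 10 and 1913 with array weights, against 1077. They numbered 1002 with upper-quartile scaling and 808 to 1435 with 1 rat left out. Of the 1077 genes, 40.1% were higher in HFD-fed rats. That share was 75.3% with the TPM as deposited, 53.9% with upper-quartile scaling and 17.7% at a mean of at least 10. The number of list genes with an unadjusted p under 0.05 was 1 with the TPM as deposited, 5 with upper-quartile scaling and 16 with array weights, against 9, and 5 to 15 with 1 rat left out, the 15 without control rat 1. For the ESRRA targets it was 1, 5 and 13, against 8, and 5 to 12 with 1 rat left out.

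The correlation of DUSP6 with AKAP12 was 0.23 with the TPM as deposited and -0.22 to 0.37 with 1 rat left out (0.37 without control rat 5). That of DUSP6 with AKAP13 was 0.29 with the TPM as deposited and -0.46 to 0.27 with 1 rat left out (0.27 without HFD rat 4). AKAP13 with ESRRA turned to 0.48 with the TPM as deposited, and was -0.87 to -0.52 with 1 rat left out. With 1 rat left out, DUSP6 with ESRRA was -0.26 to 0.68, AKAP12 with AKAP13 -0.19 to 0.17 and AKAP12 with ESRRA -0.11 to 0.32, and AKAP12 with AKAP13 was -0.030 with upper-quartile scaling. AKAP12 with ESRRA was 0.45 and DUSP6 with ESRRA 0.51 with the TPM as deposited. The cause was not tested.

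With the TPM as deposited, the log2 fold changes of CYCS, IDH3A and RHOA turned to 0.047, 0.020 and 0.042. With the mean effective length as covariate, those of CS and PRKAR1A turned to -0.063 and -0.037, and with array weights those of ACADM, CS and PRKAR1A to -0.035, -0.068 and -0.035. With 1 rat left out, they ranged from -0.023 to 0.069 for ACADM, -0.097 to 0.18 for CS and -0.067 to 0.099 for PRKAR1A, lowest without control rat 1 for CS and PRKAR1A. None of these genes passed the adjustment in any alternative.

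The diets share replicate numbers, but the numbers did not pair the rats: same-numbered rats' deviations correlated at -0.04 to 0.12, not above 0.1 for every number. A block for the replicate number gave an unadjusted p under 0.05 for 1148 genes, 6 list genes and 5 ESRRA targets. For the correlations, this block leaves only the 5 differences between same-numbered rats (HFD minus control). Over these 5 differences, r was 0.020 for DUSP6 with AKAP12, 0.099 for DUSP6 with AKAP13 and -0.73 for AKAP12 with AKAP13. AKAP12 with ESRRA was then 0.80 and DUSP6 with ESRRA 0.56, with adjusted p of 0.686 and 0.694 in exact permutation tests. The values without the block, 0.02 and 0.29, rest on the within-diet deviations of all rats and are not directly comparable. Since the numbers did not pair the rats, nothing is read from the blocked correlations. With the replicate block and the mean effective length together, the log2 fold changes of CS, PRKAR1A and RHOA were -0.059, -0.020 and 0.0003.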
